A study of Mus musculus with 6 samples.

Results

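Astrocyte maturation genes are here a set of 38 mouse genes of the astrocyte lineage. Many of them are switched on or raised as astrocytes mature, and some already mark precursors or stem cells. They were taken by symbol from a table of 54532 genes, and each symbol had 1 row. The members were measured by bulk RNA sequencing in hippocampal neurospheres, free-floating balls of dividing neural progenitors and their progeny, started from C57BL/6 pups at postnatal day 0. The FGF13cko group (hGFAPCre+, Fgf13 flox/y) and the CTRL group (hGFAPCre+, Fgf13+/y) had 3 libraries each. Both groups therefore carry the same Cre recombinase, driven by the human GFAP promoter, which is active in radial glia and neural progenitors and in the neurons and glia they form. Every culture was fed FGF-2 and EGF at 20 ng/ml each and collected on day 7, and the cells of 1 mouse went into 2 wells. No label says that each library came from a separate mouse, so p-values measure the spread between these libraries, which may be technical. The comparison asks how loss of Fgf13 in these cells goes with the levels of the members. Gene positions are on GRCm38 (GENCODE M21).

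Astrocytes arise from radial glia after the main wave of neuron production. As they mature they gain transporters that clear glutamate and GABA, the water channel Aqp4, gap junctions that join them into a network, glycogen metabolism and secreted carriers of lipid such as Apoe. Growth factors such as FGF-2 and EGF hold neurosphere cells in a dividing state, and several of the members, among them Slc1a3, Glul, Ttyh1 and Cpe, are already made by radial glia and neural stem cells.

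Libraries held 22191718 to 24531400 reads assigned to genes. Fgf13, the targeted gene, was at 201, 239 and 332 normalized counts in the FGF13cko libraries 1, 2 and 3 and at 480.1, 651 and 276 in the CTRL libraries 1, 2 and 3, so the groups overlapped (log2 change -0.81, SE 0.33, limma adjusted p = 0.134). Leaving out CTRL 3 gave -1.15 and 0.0108, and leaving out both replicate 3 libraries gave -1.35 and 0.000352. Both replicate 3 libraries stood apart from the others of their group: mitochondrially encoded genes took 4.05% of normalized counts in FGF13cko 3 and 4.14% in CTRL 3, against 2.28% and 2.36% in the other FGF13cko and 1.48% and 1.46% in the other CTRL libraries. Adjusted p-values without both replicate 3 libraries are therefore given beside each member whose call they change. That fit holds only replicates 1 and 2 of each group, whose spread may be technical. In it 37.3% of all genes tested passed, against 14.6% with all libraries, so a pass there is common.

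Of the 38 members, 35 had a mean of at least 10 normalized counts over the 6 libraries and were tested. In FGF13cko neurospheres 5 rose (Slc39a12, Cd44, Cpe, Acsbg1 and Aldh1l1) and 7 fell (Ntsr2, Ppp1r3c, Mt1, Mfge8, Ttyh1, Plpp3 and Htra1), which is 34.3% of the tested members. Over all 16852 genes tested 14.6% passed, 7.55% higher and 7.08% lower, and at or above the 90th percentile of mean level 10.7% passed. The members did not move one way: their median log2 change was -0.10, with 15 above 0 and 20 below, beside 0.02 over all genes. With the replicate number as a block 20 members passed, 9 higher and 11 lower, where 30.0% of all genes did (16.2% higher and 13.9% lower). The groups did not overlap for 19 members (54.3%, beside 39.4% of all genes tested), and 9 members differed at least 2-fold (25.7%, beside 14.2%). The test was limma on log2(normalized count + 1), with p-values adjusted over all genes tested and a threshold of 0.05, and fold changes on that scale understate the change of low genes.

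**Figure D1:**
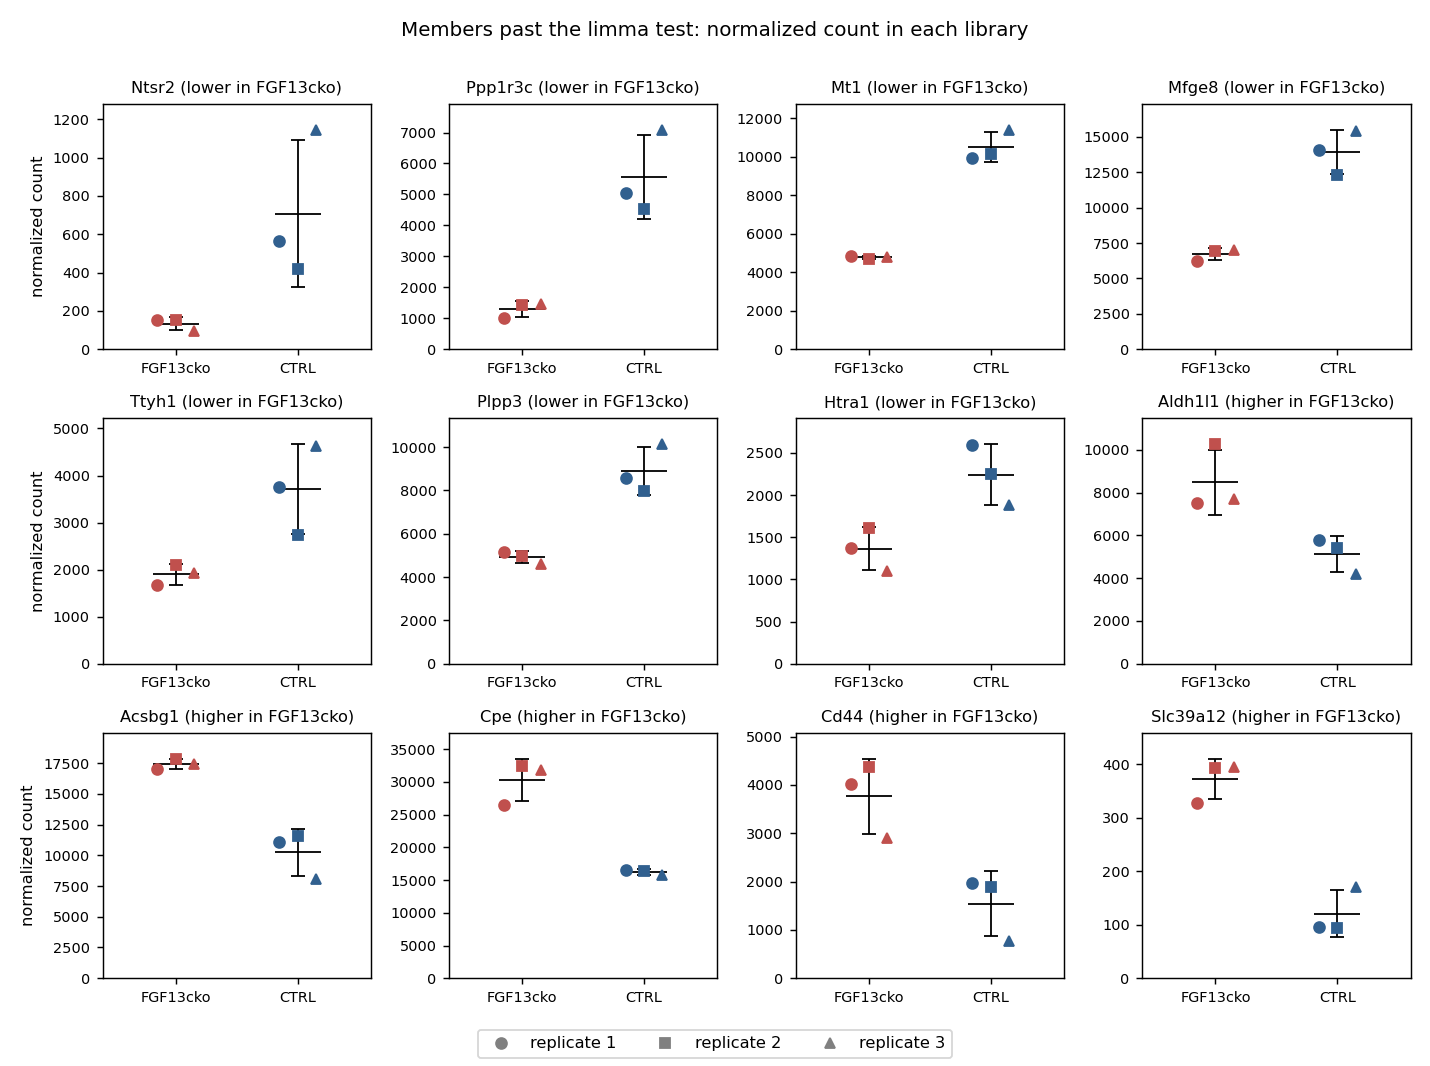
Normalized count (vertical axes, from 0) of the 12 members past the limma test in the 3 FGF13cko libraries (left of each panel) and the 3 CTRL libraries (right), with 1 point per library, its shape giving the replicate, and bars for the mean and SD. No panel has overlap between the groups, and CTRL 3 is the highest library for Ntsr2, at 1144 against 93.7 to 152 in FGF13cko.

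**Figure D2:**
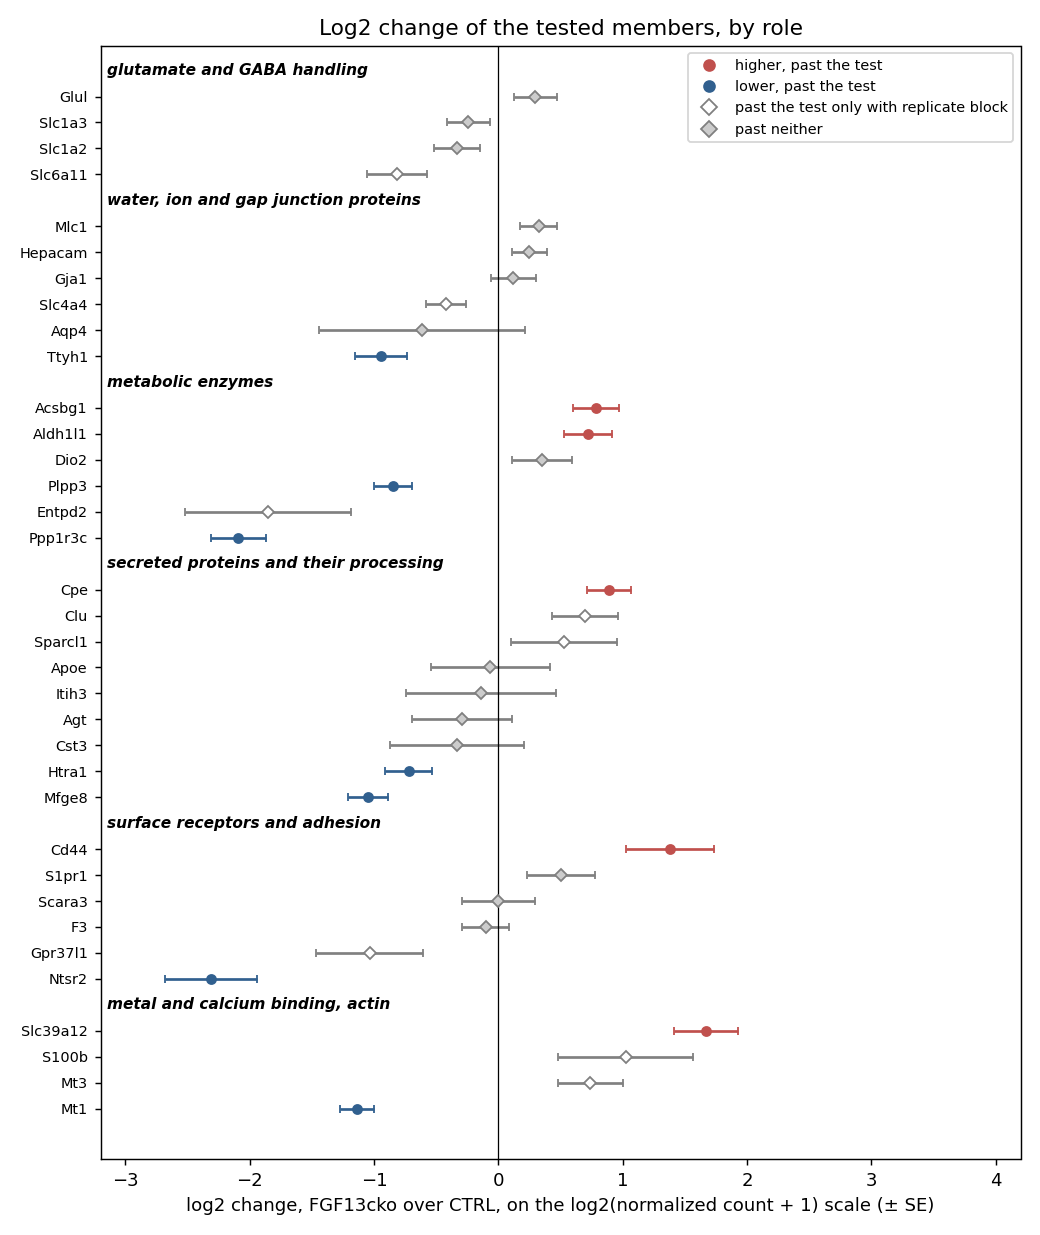
Log2 change of FGF13cko over CTRL (horizontal axis, with SE from limma) for the 35 tested members, grouped by role. Red and blue circles passed the test as higher or lower, white diamonds passed only with the replicate block, and grey diamonds passed neither; changes run from -2.31 for Ntsr2 to 1.67 for Slc39a12.

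Transmitter uptake and metabolism held 4 members, and none passed the test. Slc1a3 (GLAST), the glutamate transporter that radial glia also make, was the most abundant of them at 26889 ± 783 normalized counts in FGF13cko and 31798 ± 1017 in CTRL (SD, n = 3 each). Its 3 FGF13cko libraries lay below all CTRL libraries, yet Slc1a3 did not pass (log2 change -0.24, SE 0.17, limma adjusted p = 0.373; 0.0241 without both replicate 3 libraries). Slc1a2 (GLT-1), the main glutamate transporter of mature astrocytes, was at 7858 ± 1042 in FGF13cko and 9926 ± 1604 in CTRL with overlapping groups. Glul, glutamine synthetase, was at 6807 ± 649 in FGF13cko and 5569 ± 916 in CTRL (limma adjusted p = 0.266; 0.0144 without both replicate 3 libraries). Slc6a11 (GAT-3), the GABA transporter of astrocytes, had 5735, 5458 and 3183 normalized counts in FGF13cko 1, 2 and 3 and 9028, 8353 and 7160.2 in CTRL 1, 2 and 3. FGF13cko 3 was the lowest and the groups did not overlap. Its log2 change was -0.81 (SE 0.24), just short of the threshold at a limma adjusted p of 0.0595 and past it with the replicate block (0.00423) or without both replicate 3 libraries (0.000407).

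Among water, ion and gap junction proteins 1 of 6 tested members fell and none rose. Ttyh1 (chr7:4119408-4136708, plus strand), a membrane protein of the tweety family found in neural stem cells and glia, had 1663, 2091 and 1937 normalized counts in FGF13cko 1, 2 and 3, against 3763, 2744 and 4635 in CTRL 1, 2 and 3. Every FGF13cko library was below every CTRL library, and CTRL 3 was the highest. The log2 change was -0.94 (SE 0.21, limma adjusted p = 0.0236). Slc4a4, a sodium bicarbonate cotransporter, was at 4646 ± 715 in FGF13cko and 6191 ± 396 in CTRL (limma adjusted p = 0.113; 0.0352 with the replicate block; 0.0148 without both replicate 3 libraries).

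Mlc1 and Hepacam, which form a complex at astrocyte contacts and are mutated in a human leukoencephalopathy with cysts, were both slightly higher without passing. Mlc1 had 12393 ± 643 normalized counts in FGF13cko and 9895 ± 670.1 in CTRL, and Hepacam 4749.8 ± 469 in FGF13cko and 3992 ± 234 in CTRL (limma adjusted p = 0.176 and 0.267). Neither overlapped between the groups, and both passed without both replicate 3 libraries (0.00443 and 0.0175). Gja1 (connexin 43), the main gap junction protein of immature and mature astrocytes, was at 3328 ± 284 in FGF13cko and 3101 ± 678 in CTRL (limma adjusted p = 0.684; 0.00961 without both replicate 3 libraries). Gjb6 (connexin 30), a connexin of mature astrocytes, was barely detected, with 7 reads over the 3 FGF13cko libraries and 24 over the 3 CTRL libraries.

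Aqp4, the water channel of astrocyte endfeet, varied widely between libraries of 1 group. It had 563, 1018 and 1725 normalized counts in FGF13cko 1, 2 and 3, and 1016, 548 and 6338 in CTRL 1, 2 and 3. CTRL 3 stood far above the other libraries, and apart from it the groups overlapped. The log2 change was -0.61 (SE 0.83, limma adjusted p = 0.647), and 0.42 without CTRL 3, so its direction rested on that library.

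Metabolic enzymes and their regulators changed in both directions, with 2 of 6 members higher and 2 lower. Ppp1r3c (chr19:36731731-36736653, minus strand), the subunit that brings protein phosphatase 1 to glycogen and promotes glycogen synthesis, had 1004, 1419 and 1468 normalized counts in FGF13cko 1, 2 and 3, against 5055, 4527 and 7083 in CTRL 1, 2 and 3. The highest FGF13cko library was far below the lowest CTRL library. The ratio of means was 0.234 and the log2 change -2.09 (SE 0.22, limma adjusted p = 0.00247). Its promoter is shown because ACGTG, the core bound by hypoxia-inducible factors and also part of the E-box CACGTG, occurs in it. The window of 250 bases before to 50 after the start site (RefSeq, GRCm38.p6, chr19:36736555-36736854, minus strand) is written with matches on either strand in capitals.
Ppp1r3c promoter: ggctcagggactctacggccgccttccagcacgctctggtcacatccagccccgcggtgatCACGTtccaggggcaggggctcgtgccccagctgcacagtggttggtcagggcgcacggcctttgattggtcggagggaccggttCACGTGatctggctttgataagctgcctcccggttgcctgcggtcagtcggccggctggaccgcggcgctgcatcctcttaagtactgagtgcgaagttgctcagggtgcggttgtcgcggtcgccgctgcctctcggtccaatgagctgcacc
ACGTG matched 3 times, and 2 of these are the opposite strands of the CACGTG. Of 32851 promoter windows of this length 19.6% held ACGTG on either strand, so a match is common and is a description only. Among the members, the windows of Ntsr2, Mt1, Entpd2, Hepacam, Slc1a3 and Fam107a held it as well, and so did that of Cd44, which rose.

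Plpp3 (chr4:105157347-105232764, plus strand), a surface phosphatase that removes phosphate from lysophosphatidic acid and related lipids, fell to 5175, 4964 and 4623 normalized counts in FGF13cko 1, 2 and 3, against 8586, 7980.3 and 10126 in CTRL 1, 2 and 3. The groups were well apart (log2 change -0.85, SE 0.15, limma adjusted p = 0.0125). Acsbg1 (chr9:54604877-54661870, minus strand), an acyl-CoA synthetase that activates long-chain fatty acids, went the other way, at 17056, 17838 and 17441 in FGF13cko 1, 2 and 3 and 11108, 11568 and 8054 in CTRL 1, 2 and 3. CTRL 3 was the lowest library. The log2 change was 0.79 (SE 0.19, limma adjusted p = 0.0299). Aldh1l1 (chr6:90486427-90600203, plus strand), a folate enzyme used as a marker of astrocytes in general, had 7499, 10245 and 7674 in FGF13cko 1, 2 and 3 and 5766, 5417 and 4193 in CTRL 1, 2 and 3. FGF13cko 2 was the highest and the groups did not overlap (log2 change 0.72, SE 0.19, limma adjusted p = 0.0428). An antisense gene, Gm15756, overlaps 499 of the Aldh1l1 exon bases (11.05%), where reads of the pair cannot be told apart, since the library kit keeps no strand.

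Entpd2, an enzyme that breaks down extracellular ATP and a marker of astrocyte-like stem cells, was low, with 6.88, 6.75 and 9.66 normalized counts in FGF13cko 1, 2 and 3 and 28.5, 11.1 and 85.0 in CTRL 1, 2 and 3. It did not pass (log2 change -1.85, SE 0.67, limma adjusted p = 0.101; 0.0205 with the replicate block), and 28.8% of its exon bases are shared with Npdc1 on the same strand, so its counts are uncertain. Dio2, which makes the active thyroid hormone, was at 5131 ± 1732 in FGF13cko and 3875 ± 124 in CTRL (limma adjusted p = 0.353).

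Of the 9 secreted proteins and their processing enzymes, 1 rose and 2 fell. Cpe (chr8:64592542-64693054, minus strand), carboxypeptidase E, which trims prohormones and is abundant in glial progenitors, rose to 26545, 32481 and 31761 normalized counts in FGF13cko 1, 2 and 3, against 16597, 16400.4 and 15771 in CTRL 1, 2 and 3. The CTRL libraries were tightly grouped and all FGF13cko libraries lay above them. The ratio of means was 1.86 (log2 change 0.89, SE 0.17, limma adjusted p = 0.0161). Mfge8 (chr7:79133768-79149060, minus strand), a secreted bridge between phosphatidylserine on dying cells and the integrins of phagocytes, fell to 6209, 6939.6 and 7013 in FGF13cko 1, 2 and 3, against 14054, 12341 and 15437 in CTRL 1, 2 and 3. Its mean in FGF13cko was 0.482 of that in CTRL (log2 change -1.05, SE 0.16, limma adjusted p = 0.00729). Htra1 (chr7:130936111-130985660, plus strand), a secreted serine protease, had 1372, 1612 and 1104 in FGF13cko 1, 2 and 3 and 2593, 2253 and 1876 in CTRL 1, 2 and 3. In both groups replicate 3 was the lowest, and the groups did not overlap (log2 change -0.72, SE 0.19, limma adjusted p = 0.0406).

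Sparcl1 (hevin), a secreted protein that promotes synapse formation, and Clu (clusterin), an extracellular chaperone, were higher on average without passing. Sparcl1 had 10252, 12848 and 23769 normalized counts in FGF13cko 1, 2 and 3 and 7385, 7551 and 18622 in CTRL 1, 2 and 3. Each FGF13cko library was above the CTRL library of the same number, though the numbers are not known to pair libraries. Both replicate 3 libraries exceeded all others, so the groups overlapped (limma adjusted p = 0.428; 0.0242 with the replicate block; 0.00185 without both replicate 3 libraries). Clu was at 2616 ± 392 in FGF13cko and 1673 ± 622 in CTRL (limma adjusted p = 0.114; 0.0181 with the replicate block; 0.00199 without both replicate 3 libraries).

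Apoe, the main lipid carrier of the brain, and Cst3 (cystatin C), a protease inhibitor, were among the most abundant members and did not pass the test. Apoe had 15609, 27119.8 and 28103 normalized counts in FGF13cko 1, 2 and 3, and 18717, 14058 and 51644 in CTRL 1, 2 and 3. Cst3 had 6588, 7721 and 13704 in FGF13cko 1, 2 and 3, and 7539, 6583 and 28053 in CTRL 1, 2 and 3. CTRL 3 was far above all other libraries for both genes (limma adjusted p = 0.942 and 0.708), and without it the log2 changes were 0.49 and 0.33 in place of -0.06 and -0.33. Agt, angiotensinogen, was at 136 ± 24.6 in FGF13cko and 185 ± 105 in CTRL. Itih3, a secreted chain that becomes linked to hyaluronan, was near the limit of testing at 11.3 ± 3.31 in FGF13cko and 15.5 ± 13.8 in CTRL.

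Among surface receptors and adhesion proteins 1 of 6 rose and 1 fell. Ntsr2 (chr12:16653382-16660227, plus strand), a neurotensin receptor of astrocytes, fell to 150.5, 152 and 93.7 normalized counts in FGF13cko 1, 2 and 3, against 562, 417 and 1144 in CTRL 1, 2 and 3. It had the lowest log2 change of all tested members, at -2.31 (SE 0.37, limma adjusted p = 0.0089), and the ratio of means was 0.187. Replicate 3 was the highest library in CTRL and the lowest in FGF13cko. Cd44 (chr2:102811141-102901665, minus strand), the hyaluronan receptor, which marks astrocyte precursors and fibrous astrocytes, rose to 4019, 4374 and 2892 in FGF13cko 1, 2 and 3, against 1976, 1883 and 777 in CTRL 1, 2 and 3. Replicate 3 was the lowest in both groups, and the groups did not overlap. The log2 change was 1.38 (SE 0.36, limma adjusted p = 0.0384).

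Gpr37l1, an orphan receptor of glia, had 271, 365 and 403 normalized counts in FGF13cko 1, 2 and 3 and 588, 401 and 1460.4 in CTRL 1, 2 and 3. FGF13cko 3 and CTRL 2 were about level, and CTRL 3 was far above the rest (log2 change -1.03, SE 0.43, limma adjusted p = 0.142; 0.0191 with the replicate block; 0.0341 without both replicate 3 libraries). S1pr1, a receptor for sphingosine-1-phosphate, was at 1041 ± 62.7 in FGF13cko and 775 ± 332 in CTRL (limma adjusted p = 0.242; 0.00126 without both replicate 3 libraries). F3 (tissue factor), the starter of blood clotting, and Scara3, a scavenger receptor, had log2 changes of -0.10 and -0.00 with SEs of 0.19 and 0.30.

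The metal- and calcium-binding members included the gene with the highest log2 change. They also included Mt1 and Mt3, nearby genes with opposite signs, of which only Mt1 passed the test. Slc39a12 (ZIP12; chr2:14388316-14494977, plus strand), a zinc importer of the cell surface, rose to 329, 393 and 395 normalized counts in FGF13cko 1, 2 and 3, against 95.6, 94.6 and 171 in CTRL 1, 2 and 3. The ratio of means was 3.09 and the log2 change 1.67 (SE 0.26, limma adjusted p = 0.0079). Mt1 (chr8:94179082-94180327, plus strand), a metallothionein that binds zinc and copper, fell to 4850.0, 4682 and 4770.2 in FGF13cko 1, 2 and 3, against 9934, 10156 and 11391 in CTRL 1, 2 and 3. The FGF13cko libraries hardly differed from one another, and the log2 change was -1.14 (SE 0.14, limma adjusted p = 0.00352). Mt3, the metallothionein of brain, starts 26475 bases before Mt1 on the same strand of chromosome 8. It had 12070.4, 12846 and 18847 normalized counts in FGF13cko 1, 2 and 3 and 6875, 7647 and 11936 in CTRL 1, 2 and 3. All FGF13cko libraries were above all CTRL libraries, FGF13cko 1 only just above CTRL 3, and the log2 change of 0.74 (SE 0.26) did not pass (limma adjusted p = 0.0979; 0.00421 with the replicate block; 0.000173 without both replicate 3 libraries).

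The promoters of Mt1 and Mt3 (RefSeq, GRCm38.p6, plus strand, chr8:94178839-94179138 and chr8:94152357-94152656) are shown because metallothionein genes are classic targets of the metal-sensing factor MTF-1. Capitals mark TGCACNC or TGCGCNC, the forms of its core site, on either strand.
Mt1 promoter: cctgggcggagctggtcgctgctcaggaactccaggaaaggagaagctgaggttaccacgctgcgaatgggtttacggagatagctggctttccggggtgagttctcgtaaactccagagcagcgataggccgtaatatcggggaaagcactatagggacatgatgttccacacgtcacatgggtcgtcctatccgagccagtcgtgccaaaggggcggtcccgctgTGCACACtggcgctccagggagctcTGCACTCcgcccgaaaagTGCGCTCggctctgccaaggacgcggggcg
Mt3 promoter: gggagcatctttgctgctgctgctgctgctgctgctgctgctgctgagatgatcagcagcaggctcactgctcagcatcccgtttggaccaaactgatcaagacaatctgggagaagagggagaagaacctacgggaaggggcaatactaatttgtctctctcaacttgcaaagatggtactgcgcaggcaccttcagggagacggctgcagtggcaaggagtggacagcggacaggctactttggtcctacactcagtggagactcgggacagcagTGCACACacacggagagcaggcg
Mt1 had 3 matches and Mt3 had 1, and none overlapped another. The window of Mt2, a neighbour that was barely detected, held TGCACNC 2 times and TGCGCNC 2 times. Whether the number of matches goes with level or direction was not tested. Of all promoter windows 25.7% held at least 1 of these cores, TGCACNC in 12.6% and TGCGCNC in 15.4%. Windows were found for 32 of the 38 members.

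Mt2, which lies between Mt3 and Mt1, had only 2 reads over the FGF13cko and 6 over the CTRL libraries. An antisense gene, Gm45774, overlaps 73.5% of its exon bases. Without strand, reads from that stretch cannot be told apart between the pair, and the Mt2 count is uncertain. Gm45774 itself was at 6.88, 6.75 and 5.80 normalized counts in FGF13cko 1, 2 and 3, and 8.14, 6.04 and 17.2 in CTRL 1, 2 and 3. S100b, a calcium-binding protein of maturing astrocytes, had 202, 215 and 360.5 in FGF13cko 1, 2 and 3, and 74.3, 77.5 and 319 in CTRL 1, 2 and 3. It was higher in FGF13cko within each replicate number, but the numbers are not known to pair libraries. CTRL 3 was above FGF13cko 1 and 2 (log2 change 1.02, SE 0.54, limma adjusted p = 0.235; 0.0195 with the replicate block; 0.000358 without both replicate 3 libraries). Fam107a, an actin-binding protein of astrocytes and outer radial glia, had 33 reads over the FGF13cko and 23 over the CTRL libraries and was not tested.

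**Figure D3:**
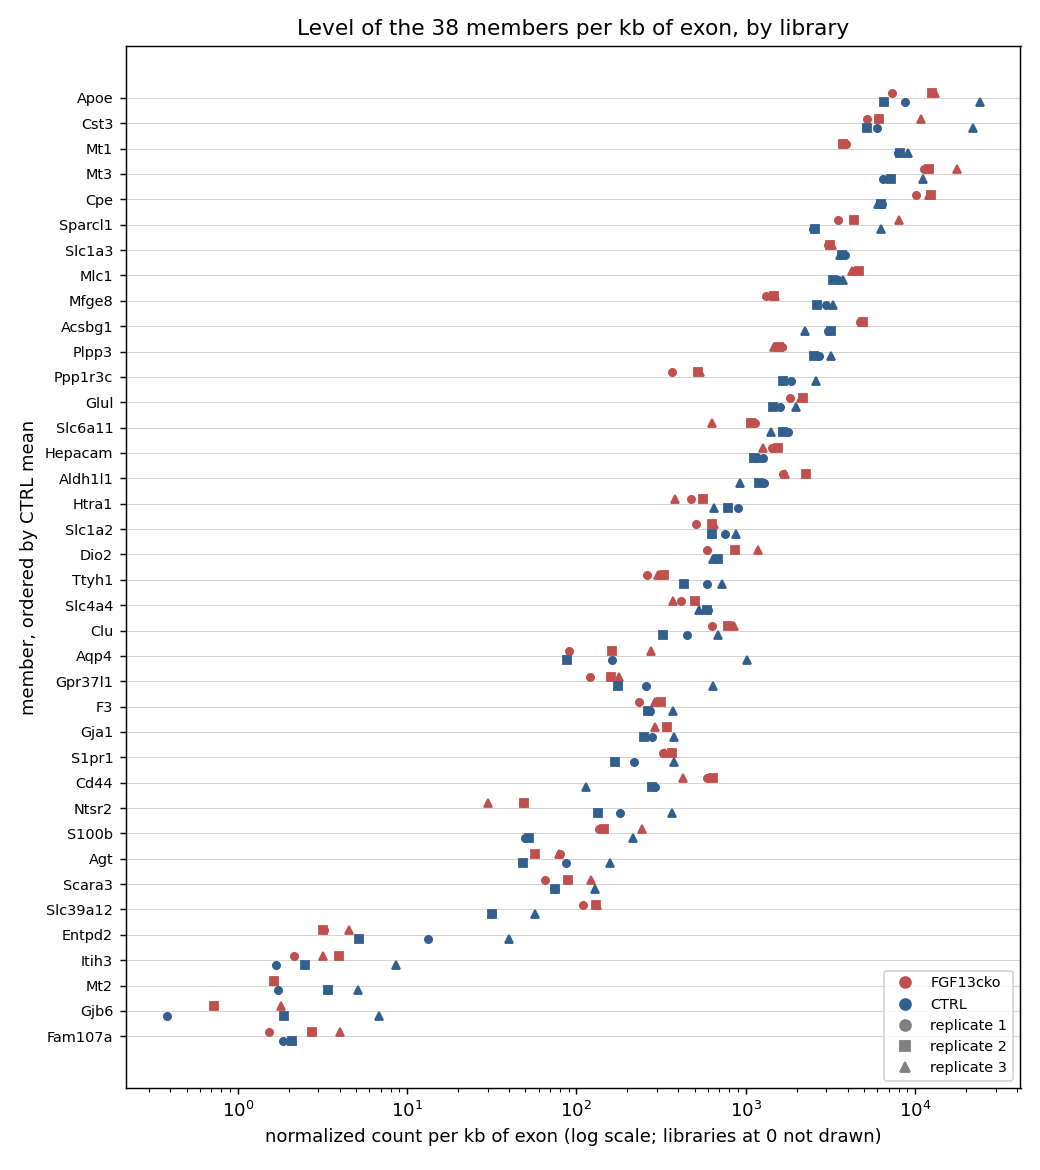
Normalized count per kb of exon (horizontal axis, log scale) of the 38 members in the 3 FGF13cko (red) and 3 CTRL libraries (blue), ordered by the CTRL mean, with 1 point per library. Levels span from Apoe, at a mean of 11043 in FGF13cko and 13162 in CTRL, to Gjb6, Mt2 and Fam107a at under 4 in both groups.

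Scaled by exon length, the members spanned a wide range of abundance. Mt3 had a mean of 13685 normalized counts per kb in FGF13cko and 8273 in CTRL, Cpe 11599 in FGF13cko and 6231 in CTRL, Apoe 11043 in FGF13cko and 13162 in CTRL, and Cst3 7376 in FGF13cko and 11105 in CTRL. Slc1a3 was at 3149.7 per kb in FGF13cko and 3725 in CTRL, Slc1a2 at 598 in FGF13cko and 756 in CTRL, Aqp4 at 177 in FGF13cko and 423 in CTRL, and S100b at 175 in FGF13cko and 106 in CTRL. The members were abundant as a set: 20 of the 35 tested lay at or above the 90th percentile of tested genes by mean. Together they took 0.823%, 1.0% and 1.08% of all normalized counts in FGF13cko 1, 2 and 3, and 0.856%, 0.797% and 1.29% in CTRL 1, 2 and 3, so the summed level did not separate the groups.

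For 29 of 35 members (82.9%, beside 69.1% of all genes tested) replicate 3 stood further from its group in CTRL than in FGF13cko. Relative to the mean of replicates 1 and 2 of its group on the log2 scale, the median member was 0.10 higher in FGF13cko 3 and 0.51 higher in CTRL 3, beside -0.01 and -0.06 over all genes tested. CTRL 3 was the highest CTRL library for 25 of 35 members (71.4%, beside 40.1% of all genes tested), and FGF13cko 3 the highest FGF13cko library for 16 (45.7%, beside 39.97%). At least 2-fold higher in CTRL 3 than in the other CTRL libraries were 10 members (28.6%, beside 10.4% of all genes tested). In FGF13cko 3 there were 2 such members, Aqp4 and Sparcl1 (5.71%, beside 4.29%), so FGF13cko 3 was close to the share of all genes in both counts. The gap was 1.19 in FGF13cko and 3.08 in CTRL for Aqp4, and 0.79 in FGF13cko and 2.06 in CTRL for S100b. For Cst3 it was 0.94 in FGF13cko and 1.99 in CTRL, for Apoe 0.45 in FGF13cko and 1.67 in CTRL, and for Ntsr2 -0.69 in FGF13cko and 1.24 in CTRL. Cd44 was lower in both replicate 3 libraries, with a gap of -0.54 in FGF13cko and -1.31 in CTRL. The gap was further from 0 in FGF13cko for Slc6a11, at -0.81 in FGF13cko and -0.28 in CTRL, and Dio2, at 0.73 in FGF13cko and -0.08 in CTRL. So it was for Hepacam, at -0.23 in FGF13cko and 0.02 in CTRL, and Slc4a4, at -0.29 in FGF13cko and -0.16 in CTRL. The same held by less for Cpe, at 0.11 in FGF13cko and -0.07 in CTRL, and Htra1, at -0.43 in FGF13cko and -0.37 in CTRL. With 1 such library in each group, the difference between the gaps was not tested. Gfap, the classic astrocyte filament, was also highest in replicate 3 of both groups, at 7845, 14371 and 30885 normalized counts in FGF13cko 1, 2 and 3 and 6189.5, 3721 and 26687 in CTRL 1, 2 and 3, and missed the threshold with all 6 libraries (0.83 on the log2 scale, limma adjusted p = 0.472). It passed as higher in FGF13cko without CTRL 3 (log2 change 1.66, limma adjusted p = 0.039) and without both replicate 3 libraries (1.15 and 0.0088).

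**Figure D4:**
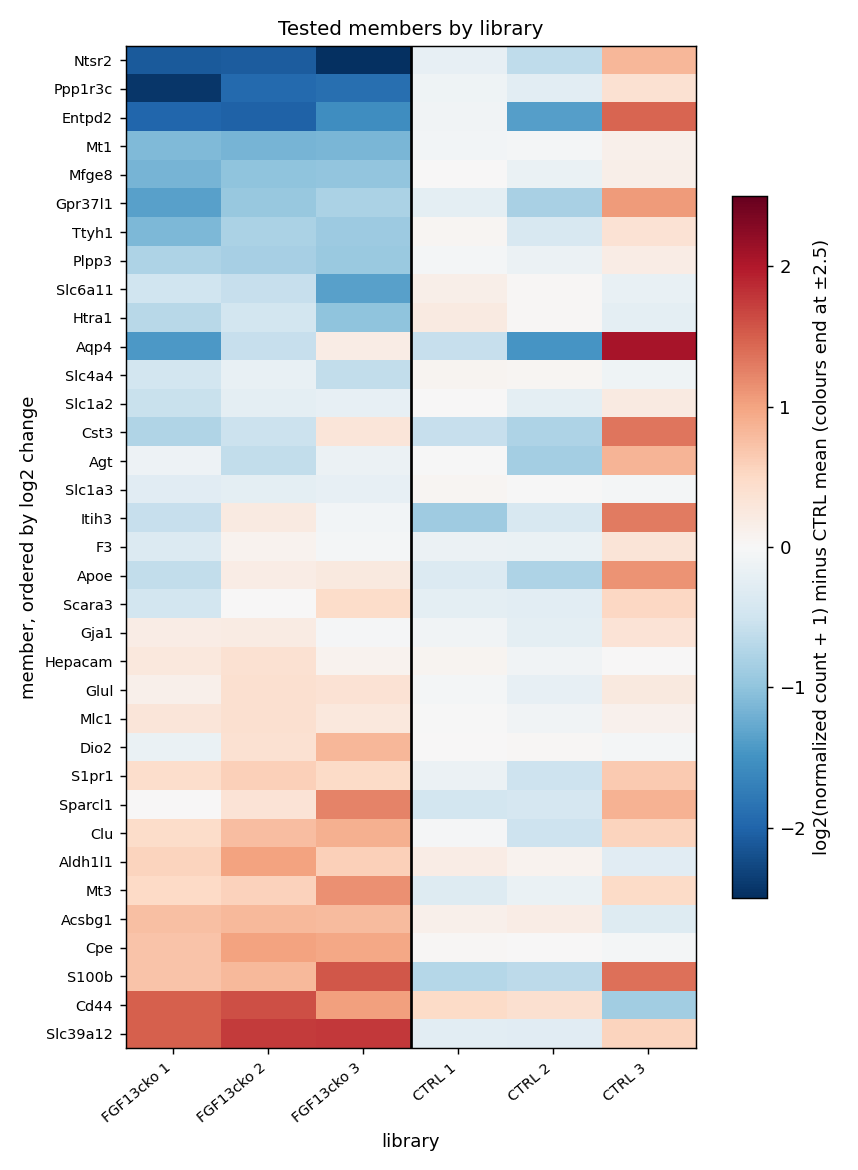
Log2(normalized count + 1) of each tested member (rows, ordered by log2 change) in each library (columns, FGF13cko left of the line), as a difference from the CTRL mean of that gene. CTRL 3 is the column with most red cells in the middle rows, where Aqp4, Cst3, Apoe and Itih3 lie, while the top and bottom rows keep their colour across all 3 FGF13cko libraries.

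Many of the member calls were lost with 1 library left out, in fits where fewer of all genes passed as well. All genes past the test numbered 2465 with all 6 libraries, and 1408, 469 and 923 without FGF13cko 1, 2 and 3. They numbered 732 and 1571 without CTRL 1 and CTRL 2. The log2 changes of the 12 called members kept their signs in each of these fits. Ppp1r3c, Mfge8, Ntsr2 and Mt1 passed with each of the 6 libraries left out in turn, with a highest limma adjusted p of 0.0188, 0.0490, 0.0431 and 0.0356. Slc39a12 missed the threshold only without FGF13cko 2 (limma adjusted p = 0.0526). Plpp3 missed it without FGF13cko 2, FGF13cko 3 or CTRL 1 (0.0525 to 0.0693), Cpe without these and CTRL 2 (0.0524 to 0.0897), and Ttyh1 and Cd44 without any FGF13cko library or CTRL 1 (0.0747 to 0.0842 and 0.0587 to 0.145). Aldh1l1, Acsbg1 and Htra1 passed only without CTRL 3 (0.0508 to 0.171 without each of the others). Without CTRL 3 all 12 calls stayed and 9 were added, for 12 higher and 9 lower of 34 tested, in a fit where 26.4% of all genes passed. Without both replicate 3 libraries 25 of 34 members passed, where 37.3% of all genes did, again with all 12 among them. The 13 others in that fit were Slc1a3, Glul, Slc6a11, Mlc1, Hepacam, Slc4a4, Gja1, Sparcl1, Clu, Gpr37l1, S1pr1, Mt3 and S100b. The authors' deposited table has 15 members under an adjusted p of 0.05, 5 higher and 10 lower, where 16.7% of its genes with an adjusted p are. Those beyond the 12 calls were Slc6a11, Entpd2 and Gpr37l1, all lower (authors' adjusted p = 0.0199, 0.00941 and 0.0228).

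Beyond the members, a list of 42 other astrocyte genes had 2 of 39 tested members higher and 6 lower, with a median log2 change of 0.01. That is 20.5% past the test, beside 14.6% of all genes tested (7.55% higher and 7.08% lower). With the replicate block 8 were higher and 10 lower, where 16.2% and 13.9% of all genes were. Fgfr3, the FGF receptor of astrocyte precursors, fell to 2133 ± 264 normalized counts in FGF13cko, against 6464 ± 989 in CTRL (log2 change -1.59, SE 0.17, limma adjusted p = 0.00264), and it passed in all 6 fits that leave out 1 library. Lcat, which esterifies cholesterol on lipoproteins, fell to 377 ± 53.7 in FGF13cko, against 804 ± 113 in CTRL (limma adjusted p = 0.00908; 0.0531 without FGF13cko 2). The genes of this list that rose were Gpc4, a glypican that promotes synapses, at 1752 ± 124 in FGF13cko and 997 ± 147 in CTRL, and Pla2g7, a phospholipase that cleaves platelet-activating factor, at 4247 ± 609 in FGF13cko and 1973 ± 847 in CTRL (limma adjusted p = 0.0145 and 0.0284). Gpc4 missed the threshold without FGF13cko 1 or 2 (0.0526 and 0.0804), and Pla2g7 with any library but CTRL 3 left out (0.0707 to 0.0997). Over these fits the list had 0 to 9 members higher and 1 to 10 lower, where 469 to 4373 of all genes passed in either direction.

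Regulators of astrocyte fate had 2 of 21 members higher and 4 lower, with a median log2 change of -0.16. That is 28.6% past the test, beside 14.6% of all genes tested (7.55% higher and 7.08% lower). With the replicate block 5 were higher and 6 lower, where 16.2% and 13.9% of all genes were. Lif, a cytokine that drives astrocyte differentiation through STAT3, rose to 297, 323 and 327 normalized counts in FGF13cko 1, 2 and 3, against 60.0, 48.3 and 51.6 in CTRL 1, 2 and 3. The log2 change was 2.55 (SE 0.19, limma adjusted p = 0.00115), while its receptor subunit Lifr fell to 948 ± 129 in FGF13cko, against 1454 ± 33.1 in CTRL (log2 change -0.63, limma adjusted p = 0.0287). Bmp2, a ligand that promotes astrocyte fate, rose to 34.6 ± 9.5 in FGF13cko, against 8.42 ± 3.2 in CTRL (limma adjusted p = 0.0194). Bmp4, a related ligand named after its values were seen, fell to 0.984, 0.965 and 7.73 in FGF13cko 1, 2 and 3, against 44.8, 25.2 and 559 in CTRL 1, 2 and 3 (log2 change -4.76, SE 1.13, limma adjusted p = 0.0299). It rested on 10 reads over the FGF13cko libraries, and missed the threshold without any FGF13cko library or CTRL 1 (0.0523 to 0.118). Hes5, the Notch target that holds radial glia, fell to 56.6 ± 8.74 in FGF13cko, against 357 ± 205 in CTRL (log2 change -2.49, SE 0.39, limma adjusted p = 0.00794), and Sox8, a glial transcription factor, to 3116 ± 752 in FGF13cko, against 7009 ± 1254 in CTRL (limma adjusted p = 0.0143). With 1 library left out, Lif and Hes5 always passed, Lifr only without CTRL 3 (0.0517 to 0.107 without each of the others), Bmp2 not without FGF13cko 2, FGF13cko 3 or CTRL 1 (0.0704 to 0.0954), and Sox8 not without FGF13cko 2 or CTRL 1 (0.0567 and 0.0534). Over these fits the list had 1 to 4 members higher and 1 to 6 lower, where 469 to 4373 of all genes passed in either direction.

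Levels in bulk samples do not tell fewer cells of a type from less RNA per cell. Summed markers of several other cell types were higher in FGF13cko, at 31187 to 44987 normalized counts in FGF13cko against 19840.3 to 25644 in CTRL for 11 neuron markers, 388 to 567 in FGF13cko against 188 to 196 in CTRL for 11 microglia and macrophage markers, 912 to 2494 in FGF13cko against 285 to 427 in CTRL for 9 mural and fibroblast markers, 255 to 454 in FGF13cko against 85.0 to 226 in CTRL for 7 endothelial markers and 1355 to 1575 in FGF13cko against 572 to 829 in CTRL for 6 ependymal markers. Over all genes tested 7.55% were higher in FGF13cko, and 16.2% with the replicate block. Of these cell types, neurons had 7 of 11 tested markers higher (10 with the replicate block) and microglia 3 of 8 (5 with the block). Mural cells and fibroblasts had 3 of 6 higher (4 higher and 1 lower with the block). Endothelial cells had 2 of 7 higher (4 with the block) and ependymal cells 3 of 4 (3 with the block). No marker of these was lower past the test. Col1a1, a fibroblast collagen, was the exception with the replicate block, at 31.1 ± 9.59 in FGF13cko and 72.5 ± 33.0 in CTRL (log2 change -1.11, limma adjusted p = 0.129; 0.0185 with the block, 0.0108 without CTRL 3 and 0.00293 without both replicate 3 libraries). Without FGF13cko 2 the counts of higher markers were 0, 0, 0, 0 and 1 in that order of cell types. In that fit 469 of all genes passed in either direction. The microglia markers Cx3cr1, P2ry12 and Tmem119, the fibroblast markers Dcn and Lum and the mural marker Kcnj8 were below a mean of 10, and the ependymal marker Tmem212 was at 0 in every library. Oligodendrocyte lineage markers summed to 58744 to 75088 in FGF13cko and 49355 to 73618 in CTRL (2 of 10 lower, 4 with the replicate block). Choroid plexus markers summed to 40.5 to 431 in FGF13cko and 17.1 to 280.1 in CTRL (1 tested, not past the test). Neural stem and progenitor markers, which define the labelled cell type, summed to 167804 to 185534 in FGF13cko and 118103 to 135262 in CTRL. Of these 10 progenitor markers none was higher past the test and 5 were lower, and with the replicate block 2 were higher and 6 lower. Over all genes tested 7.08% were lower, and 13.9% with the block. The progenitor markers had 7 log2 changes below 0 and a median of -0.65. Their sum, which weighs abundant markers most, thus went the other way from most of them. Mfge8, Apoe, Cst3, Cd44, Clu and Htra1 are also made by some of these other cells, and the part of those cells in the members' levels was not tested.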

How the data were processed

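Libraries were prepared with an NEBNext Ultra kit, per the labels' protocols, and that kit does not mark strand. The submitters' processing notes name STAR, DESeq2 and mm10. Which annotation and read counter were used is not given here. The authors deposited a normalized expression signal per gene and library, which is the gene count divided by 1 size factor per library, per the file headers and values. All values (100%) were whole multiples of 1 step per library, within 0.01 of a read. The authors also deposited their own log2 fold change with its Wald score and p-values. Where no read was found, up to 3 reads (2.89 to 3.05 normalized counts) remain possible with 95% confidence, for counting error only.

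limma (version 3.58.1, R 4.3.3) was fitted to log2(normalized count + 1) over 16852 genes with a mean of at least 10, with a trend in the prior variance, no term beside genotype, 2-sided p-values and Benjamini-Hochberg adjustment. Alternatives were edgeR (4.0.16, quasi-likelihood) and DESeq2 (1.42.0) on the recovered reads, other pseudocounts, filters and scalings, a replicate block and leaving out libraries. Each tool was tested on simulated data. Same-numbered libraries deviated together from their group means (residual correlation 0.36, 0.20 and 0.54 for replicates 1, 2 and 3). The crossed pairs FGF13cko 1 with CTRL 2 (0.33) and FGF13cko 2 with CTRL 1 (0.26) correlated as well, both above 0.20. These values therefore do not tell how replicates 1 and 2 pair across the groups. The meaning of the replicate numbers is unknown, so the main fit did not pair libraries. Only the replicate block did, as an alternative. Gene positions and exon lengths came from GENCODE M21 (GRCm38, the assembly of mm10), which holds 54495 of the gene IDs. The members and lists were chosen with earlier results of these data known, so no list was tested. Values of every library were given for members past the threshold or with a log2 change of at least 1 in either direction, and for some others chosen after their values were seen. From each other list Gfap and up to 3 called genes per direction were named, by lowest adjusted p. The result of 1 gene that this rule names is not reported here.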

Additional observations from a re-analysis of the deposited data

How the results depend on the processing

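Over all genes 2465 passed the limma test, 3971 by DESeq2, 5064 with the replicate block, 6145 without both replicate 3 libraries and 469 to 4373 with 1 library left out. Members higher in FGF13cko numbered 5, and 3 with no filter on low values, 9 with the replicate block, 14 without both replicate 3 libraries and 0 to 12 with 1 library left out. Members lower numbered 7, and 11 by DESeq2, with the replicate block or without both replicate 3 libraries, and 4 to 9 with 1 library left out. The 4 that DESeq2 added were Slc6a11, Slc4a4, Entpd2 and Gpr37l1 (DESeq2 adjusted p = 0.0116, 0.0421, 0.0112 and 0.029). The median log2 change of the members was -0.10, and -0.24 to 0.27 with 1 library left out, the highest without CTRL 3. Both pseudocounts, both other scalings, the filter at a mean of 50 and edgeR gave the same 12 member calls, and all 12 also passed with the replicate block. Why single libraries moved the counts was not tested. Signs turned for 8 members, none of them past the test. The log2 change was 0.0195 for Aqp4 without both replicate 3 libraries and -1.35 to 0.42 with 1 library left out. In the same order it was 0.34 and -0.45 to 0.49 for Apoe, 0.0177 and -0.71 to 0.33 for Cst3, 0.0578 and -0.71 to 0.13 for Agt, 0.028 and -0.20 to 0.0556 for F3, and 0.0323 and -0.23 to 0.26 for Scara3. With 1 library left out it was -0.59 to 0.0785 for Itih3 and -0.0023 to 0.29 for Gja1. Itih3 and Entpd2 were too low for the filter at a mean of 50, and Itih3 also for the fits without CTRL 3. With 3 libraries a group, differences within the spread between libraries were not detectable.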

Other observations

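Reactive astrocytes are the state astrocytes enter after injury or inflammation. Of 26 tested genes of that list 8 rose, 2 fell and 16 did not pass, where 7.55% of all genes rose and 7.08% fell. The median log2 change of the list was 1.02. Vim of this list is also among the progenitor markers used here, and summed markers of several other cell types were higher in FGF13cko. The part of other cells in the levels of this list was not tested. With the replicate block 16 rose and 2 fell, where 16.2% and 13.9% of all genes did. Ggta1, a glycosyltransferase, rose to 330.5, 387 and 491 normalized counts in FGF13cko 1, 2 and 3, against 114, 127 and 138 in CTRL 1, 2 and 3 (log2 change 1.65, SE 0.20, limma adjusted p = 0.00347). S1pr3, a receptor for sphingosine-1-phosphate like the member S1pr1, rose to 333, 367 and 472 in FGF13cko, against 87.5, 51.3 and 103 in CTRL (log2 change 2.30, SE 0.29, limma adjusted p = 0.00377). Tm4sf1, a membrane protein also made by endothelial cells, rose to 565, 598 and 1913 in FGF13cko, against 111, 83.5 and 152 in CTRL (limma adjusted p = 0.00839), with FGF13cko 3 far above the rest. The genes that fell were Fbln5, a matrix protein, at 28.8 ± 4.06 in FGF13cko and 108 ± 15.3 in CTRL, and Emp1, a membrane protein, at 311 ± 26.2 in FGF13cko and 731 ± 196 in CTRL (limma adjusted p = 0.00489 and 0.012; Emp1 at 0.0553 without FGF13cko 2 and 0.0518 without CTRL 1). With 1 library left out 3 to 12 genes of the list rose and 1 to 3 fell, where 469 to 4373 of all genes passed in either direction.

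Other genes of metal handling were taken as a list beside Mt1, which fell, and Slc39a12, which rose. Of 9 tested genes none rose and 1 fell, where 7.55% of all genes rose and 7.08% fell. That is 11.1% past the test, near the 14.6% of all genes tested, so the count says little about the list. The median log2 change of the list was 0.04. With the replicate block 3 rose and 1 fell, where 16.2% and 13.9% of all genes did. The gene that fell without the block, Slc30a10, a manganese exporter, was at 81.6, 123 and 70.5 normalized counts in FGF13cko 1, 2 and 3 and 246, 226 and 591 in CTRL 1, 2 and 3 (log2 change -1.83, SE 0.39, limma adjusted p = 0.021). It passed without CTRL 2 or CTRL 3 and missed the threshold without each of the other libraries (0.0514 to 0.0778).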
